A study of Mus musculus with 4 samples.

Results

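Transporters of glutamate and GABA load these transmitters into synaptic vesicles and clear them from the space around the synapse. The gene set described here held 9 genes of these families, chosen by symbol, and 8 of them had a value in the hippocampal arrays, out of 15995 genes tested. They were the vesicular carriers Slc17a7, Slc17a6, Slc17a8 and Slc32a1, the plasma membrane glutamate transporters Slc1a1 and Slc1a3, and the plasma membrane GABA transporters Slc6a11 and Slc6a13. Each of the 8 was read by 1 row of the table, a transcript cluster, which summarises the probes of 1 putative gene. The remaining gene, Slc1a2, the main astrocytic glutamate transporter, shared its row with a second gene symbol and was therefore given no value of its own.

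Loading of a vesicle is driven by a proton pump in the vesicle membrane. The vesicular glutamate transporters of the SLC17 family use the gradient it makes to concentrate glutamate, and the vesicular inhibitory amino acid transporter encoded by Slc32a1 uses it to concentrate GABA and glycine. Uptake across the plasma membrane runs on the sodium gradient, through the SLC1 family for glutamate and the SLC6 family for GABA, and in the hippocampus astrocytes carry out much of it. Glutamate taken up by astrocytes is converted to glutamine, which returns to neurons as the precursor of both transmitters.

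Hippocampi came from 4 untreated male mice of the C57BL/6 strain at 3 months of age, 2 with a knockout of Malat1 and 2 wildtype, with 1 Affymetrix mouse exon array per animal. The design text pairs each knockout animal with a wildtype littermate, and the labels give neither the allele nor the deleted part of the gene. Malat1 encodes an abundant nuclear long noncoding RNA, and the series addressed its effects on gene expression. A label describes the data as neuronal, but the protocols give dissected hippocampi and no sorting of cells, so the RNA was read as that of whole tissue. Above the filter on dim rows, which 77.2% of all 20707 genes with a row of their own passed, were 9 of 10 markers of excitatory neurons, 10 of 11 of astrocytes and 6 of 7 of oligodendrocytes, shares too near that of all genes to show which cells were present. In such tissue, fewer cells of a type and less RNA per cell cannot be told apart.

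Malat1 itself had log2 signals of 8.53 and 8.70 in knockout hippocampi, against 11.19 and 11.25 in wildtype hippocampi, which goes with the labels. It was the only gene of the 15995 to pass the threshold (limma, adjusted p = 0.00639), which is 0.00625% of the genes tested. Array medians over all rows lay between 5.59 and 5.63. Over all genes, the median absolute difference was 0.076 to 0.083 in the 3 pairs of arrays that held knockout replicate 2, against 0.047 to 0.057 in the other 3 pairs. Over the 8 transporters that array did not stand apart, with 0.027 to 0.046 in its 3 pairs, against 0.033 to 0.052 in the other 3.

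No difference of a transporter gene between Malat1 knockout and wildtype hippocampi passed the test. Of the 8 genes, 0 passed the adjusted threshold and 0 had an unadjusted p under 0.05, whereas 617 of all genes, or 3.86%, had one (limma, two-sided). Fitted row by row over all 20317 singly named rows above the filter, again 0 transporters passed, against 0.00492% of all rows. Every adjusted p in the fit by gene was 1 and the smallest unadjusted p was 0.346, that of Slc17a8. Log2 fold changes of knockout over wildtype ran from -0.06 to 0.04, with 3 above 0, 5 below 0 and a median of -0.016. Over all genes 7873 lay above 0 and 8121 below, and the median was -0.001.

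**Figure D1:**
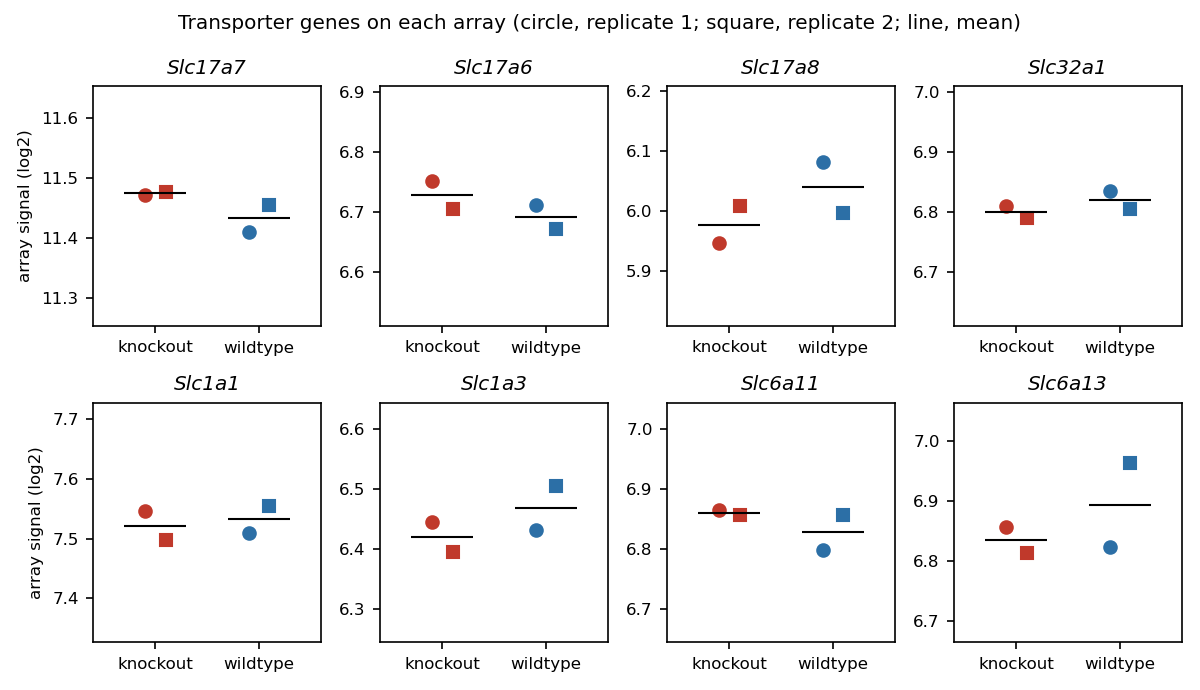
Array signal on the log2 scale of the 8 transporter genes with a value, in the 2 Malat1 knockout arrays (left, red) and the 2 wildtype arrays (right, blue). Circles are replicate 1, squares replicate 2 and lines the means; each panel has its own position on the scale and the same height of 0.4 log2 units. Slc17a7 is the only gene in which both knockout points lie above both wildtype points.

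Slc17a7 encodes VGLUT1, the vesicular glutamate transporter of hippocampal pyramidal and granule neurons. Its log2 signal was 11.47 and 11.48 in knockout hippocampi, against 11.41 and 11.45 in wildtype hippocampi. Both knockout arrays were above both wildtype arrays, and Slc17a7 was the only 1 of the 8 transporters in which the groups did not overlap. Groups that did not overlap were found in 29% of all genes, with the knockout arrays higher in 14.7% and lower in 14.3%. The log2 fold change was 0.04 ± 0.05 (SE, n = 2 arrays per genotype, adjusted p = 1 by limma), and its 95% interval ran from 0.939-fold to 1.13-fold.

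Slc17a6 encodes VGLUT2, the vesicular glutamate transporter typical of thalamic and other subcortical neurons. Log2 signals were 6.75 and 6.71 in knockout hippocampi, against 6.71 and 6.67 in wildtype hippocampi. The higher wildtype array lay between the knockout arrays, and the log2 fold change was 0.04 ± 0.05 (SE). Markers of thalamus and habenula, the neighbouring regions rich in this transporter, had a median log2 fold change of 0.009, with 0 of 8 called. All 8 were above the filter, as were 77.2% of all genes. Synpo2, Lef1, Zic1 and Tcf7l2 lay 0.26 to 0.48 above it, and Lhx9, Prkcd, Gbx2 and Tnnt1 lay 0.80 to 2.02 above it. Whether such tissue was present was not tested. The mean log2 level of the 8 markers was 6.44 and 6.51 in knockout arrays, against 6.43 and 6.49 in wildtype arrays.

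Slc17a8 encodes VGLUT3, found in neurons that also release another transmitter, among them a class of cholecystokinin interneurons in the hippocampus. It read 5.95 and 6.01 in knockout hippocampi, against 6.08 and 6.00 in wildtype hippocampi. The groups overlapped, and the same-numbered pairs went opposite ways, at -0.14 and 0.01. The log2 fold change of -0.06 ± 0.06 (SE) was the farthest from 0 of the 8. The mean of this row was 0.31 above the filter level of 5.70, the smallest distance among the transporters, and signals near that level understate folds.

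Slc32a1, whose product fills vesicles at inhibitory synapses, had log2 signals of 6.81 and 6.79 in knockout hippocampi, against 6.84 and 6.81 in wildtype hippocampi. Knockout replicate 1 lay just above wildtype replicate 2, so the groups overlapped, although both same-numbered pairs were negative, at -0.03 and -0.02. Its spread was the smallest of the set, with an SD within genotype of 0.018. The log2 fold change was -0.02 ± 0.05 (SE), with a 95% interval from 0.901-fold to 1.08-fold.

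Among the enzymes that make GABA, which share the inhibitory neurons with Slc32a1, Gad1 and Gad2 gave different values. Gad2 read 9.995 and 10.04 in knockout hippocampi, against 10.19 and 10.19 in wildtype hippocampi, so that its groups did not overlap. Its log2 fold change was -0.17 at an unadjusted p of 0.0228 by limma, and it did not pass the adjusted threshold (adjusted p = 1). Gad1 read 8.16 and 8.17 in knockout hippocampi, against 8.16 and 8.18 in wildtype hippocampi, a log2 fold change of 0.00. Whether the changes of Gad2, Gad1 and Slc32a1 differ from each other was not tested.

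Slc1a1 encodes EAAT3, the glutamate and cysteine transporter of neuronal cell bodies and dendrites. Log2 signals were 7.55 and 7.50 in knockout hippocampi, against 7.51 and 7.55 in wildtype hippocampi. The 2 genotypes covered almost the same range, and the log2 fold change of -0.01 ± 0.05 (SE) was the nearest to 0 of the 8. Its sign turned, to 0.01, without knockout replicate 2 and likewise without wildtype replicate 2. Slc1a1 is the 1 gene of the 9 on chromosome 19, which also carries Malat1, and in the order of RefSeq genes 195 of the genes tested lie between them.

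Slc1a3 encodes GLAST, a glutamate transporter of astrocytes and radial glia. It read 6.45 and 6.40 in knockout hippocampi, against 6.43 and 6.51 in wildtype hippocampi. Knockout replicate 1 lay between the wildtype arrays, and the same-numbered pairs differed in sign, at 0.01 and -0.11. The log2 fold change was -0.05 ± 0.06 (SE), and the 95% interval reached from 0.875-fold to 1.07-fold. Astrocyte markers had a mean log2 level of 7.67 and 7.65 in knockout arrays, against 7.63 and 7.66 in wildtype arrays. Of the 10 measured, 6 lay above 0 and 4 below, with 0 called, and the farthest from 0 were Gfap at 0.09, Aldh1l1 at 0.09 and S100b at -0.06.

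Slc6a11 encodes GAT3, the GABA transporter of astrocyte processes. Log2 signals were 6.87 and 6.86 in knockout hippocampi, against 6.80 and 6.86 in wildtype hippocampi. The second knockout array and the second wildtype array were nearly equal, and the lower value of wildtype replicate 1 made the log2 fold change 0.03 ± 0.05 (SE). Without wildtype replicate 1 it was 0.00.

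Slc6a13 encodes GAT2, a GABA and taurine transporter that in the brain belongs mainly to the meninges. It had log2 signals of 6.86 and 6.81 in knockout hippocampi, against 6.82 and 6.96 in wildtype hippocampi. Wildtype replicate 2 was high, and the gap of 0.14 between the wildtype arrays was the widest within a genotype for any of the 8 transporters. The log2 fold change was -0.06 ± 0.07 (SE), and without wildtype replicate 2 it was 0.01. Meningeal and fibroblast markers, 9 of 10 measured, had a mean log2 level of 6.60 and 6.66 in knockout arrays, against 6.58 and 6.62 in wildtype arrays. The mean log2 level of the choroid plexus markers, 4 of 6 measured, was highest in the same wildtype replicate 2, with 6.21 and 6.33 in knockout arrays, against 6.24 and 6.55 in wildtype arrays. Ttr, Kcnj13 and Kl were highest on that array, while Folr1 was highest in knockout replicate 2, at 6.21 against 5.93 in wildtype replicate 2. Ttr read 5.73 and 5.86 in knockout hippocampi, against 6.09 and 6.58 in wildtype hippocampi. Its log2 fold change of -0.54 did not pass the adjusted threshold. The part of these tissues in the Slc6a13 value was not tested.

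**Figure D2:**
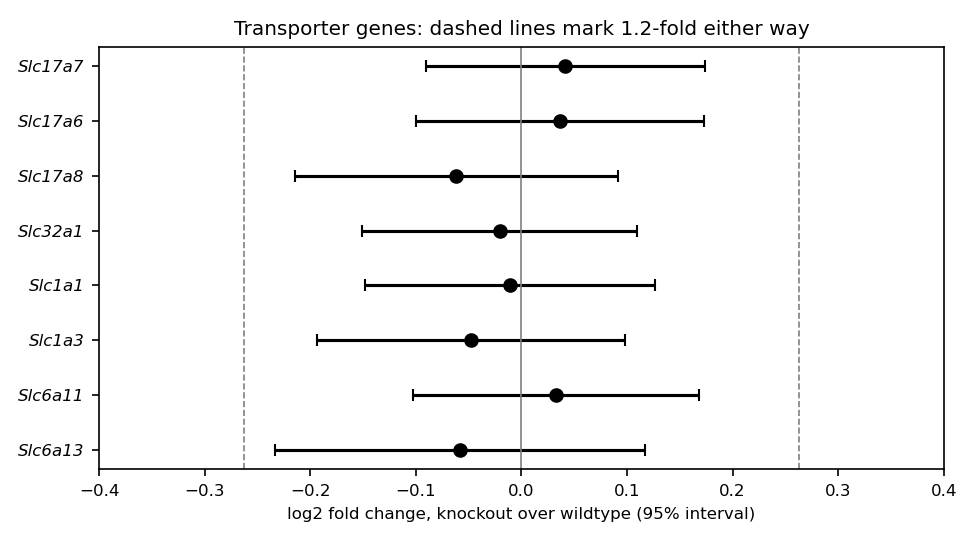
Log2 fold change of knockout over wildtype for the 8 transporter genes (points) with 95% intervals from limma (bars), which carry no adjustment over genes. Dashed lines mark a change of 1.2-fold in either direction. All 8 intervals cross 0 and lie between the dashed lines.

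The arrays set narrow limits on the size of any change in these signals. All 8 intervals lay within 1.2-fold in both directions, a bound set after the values were seen, against 71.1% of all genes, and within 1.5-fold, against 95.9% of all genes. The widest reached 1.18-fold lower in the knockout, for Slc6a13, and the highest upper bound was 1.13-fold, for Slc17a7. The intervals had a median half-width of 0.14 on the log2 scale, against 0.16 over all genes. These are folds of array signal, which compresses true ratios, and their precision is limited by the 2 arrays per genotype.

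The transporters also varied little between animals of the same genotype. Their SD within genotype had a median of 0.032 on the log2 scale and ran from 0.018 for Slc32a1 to 0.074 for Slc6a13, against a median of 0.060 over all genes. Only Slc6a13 lay above the median of all genes. A low spread was not particular to the set, since 38 measured genes of related lists, described below, had a median of 0.037. In those lists 89.5% of the intervals lay within 1.2-fold in both directions. A log2 fold change farther from 0 than that of any transporter was seen in 5932 genes, or 37.1% of those tested. In 3 of the 8, Slc17a7, Slc17a6 and Slc32a1, both same-numbered pairs had the same direction, against 46.9% of all genes.

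**Figure D3:**
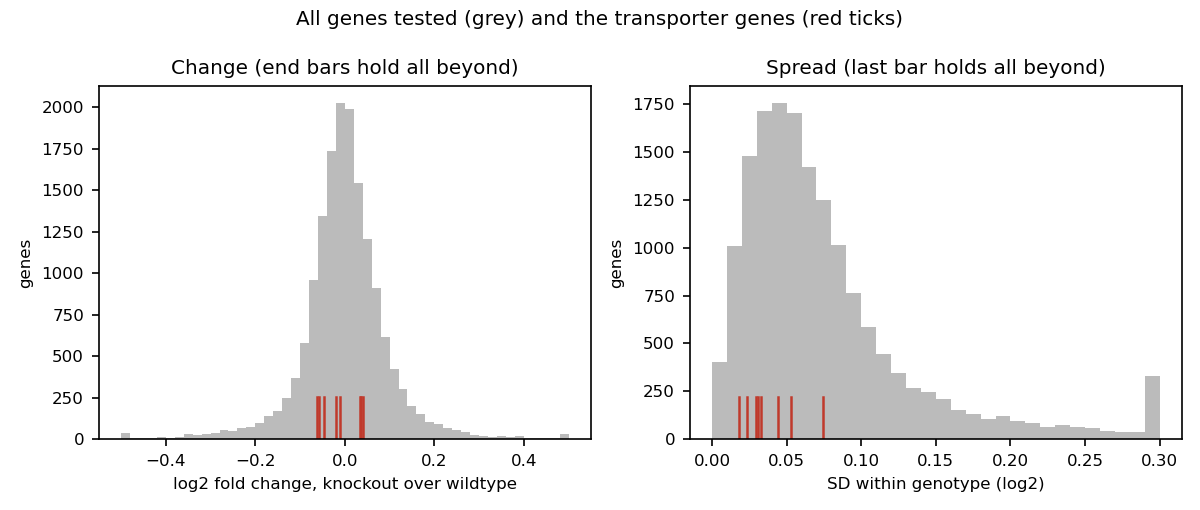
Number of genes, of the 15995 tested, by log2 fold change of knockout over wildtype (left) and by SD within genotype on the log2 scale (right), in grey, with the 8 transporter genes as red ticks. The ticks lie between -0.06 and 0.04 on the left and between 0.018 and 0.074 on the right.

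Among the other genes that carry, make or recycle glutamate and GABA, 38 of 46 listed were measured. None of them passed the adjusted threshold by limma. An unadjusted p under 0.05 was found for 1 of the 38, Gad2, or 2.63%, against 3.86% of all genes. Log2 fold changes were above 0 in 15 and below 0 in 23, with a median of -0.010. Groups did not overlap in 12 of the 38, against 29% of all genes. The knockout arrays were higher in 4, Slc17a9, Slc1a6, Slc38a5 and Atp1b2, against 14.7% of all genes. They were lower in 8, among them Gad2, Slc17a5 and Slc38a1, against 14.3%. The other listed genes were not analysed here.

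Of 8 other carriers measured, 4 lay above 0 and 4 below. The farthest from 0 was Slc7a11, the cystine and glutamate exchanger xCT, at -0.16 (95% interval -0.40 to 0.07). It read 7.17 and 6.96 in knockout hippocampi, against 7.17 and 7.29 in wildtype hippocampi, and the groups overlapped. Slc1a7, the glutamate transporter of retinal neurons, stood at 0.10, and the vesicular nucleotide transporter Slc17a9 also stood at 0.10. The mean of the Slc1a7 row was only 0.05 above the filter level of 5.70, and wildtype replicate 1 lay below that level, at 5.67. Its groups overlapped. The lysosomal sialic acid transporter Slc17a5 read 8.21 and 8.24 in knockout hippocampi, against 8.27 and 8.33 in wildtype hippocampi, with groups that did not overlap and a log2 fold change of -0.07 that did not pass the test. Nearer to 0 were Slc1a6 at 0.07, the betaine and GABA transporter Slc6a12 at -0.05 and the neutral amino acid carriers Slc1a4 at -0.02 and Slc1a5 at 0.02.

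Of the glutamine transporters, 3 of 4 lay below 0, with a median log2 fold change of -0.06. Slc38a1, which takes glutamine into neurons, read 7.81 and 7.60 in knockout hippocampi, against 7.87 and 7.85 in wildtype hippocampi. Its groups did not overlap, but the knockout arrays differed by more than the wildtype arrays, and the log2 fold change of -0.16 (95% interval -0.37 to 0.06) did not pass the test. Slc38a3, through which astrocytes release glutamine, stood at -0.07, and Slc38a5 at 0.08.

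Metabolic enzymes other than Gad2 stayed near 0, with the succinic semialdehyde dehydrogenase Aldh5a1 at -0.05 and glutamine synthetase, Glul, at -0.02. Among the 15 measured genes of the vesicular proton pump and its partners, 5 lay above 0 and 10 below, with a median of -0.018. Their values ran from -0.06 to 0.03, and the farthest from 0 were Atp6v1b2 at -0.06, Atp6v1a at -0.05 and Atp6v1f at -0.05, subunits of the catalytic part of the pump. Of the genes for ion gradients, 3 of 7 were measured, and Atp1b2, a glial sodium pump subunit, stood at 0.08, Atp1b1 at 0.01 and the astrocytic potassium channel Kcnj10 at 0.00.

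**Figure D4:**
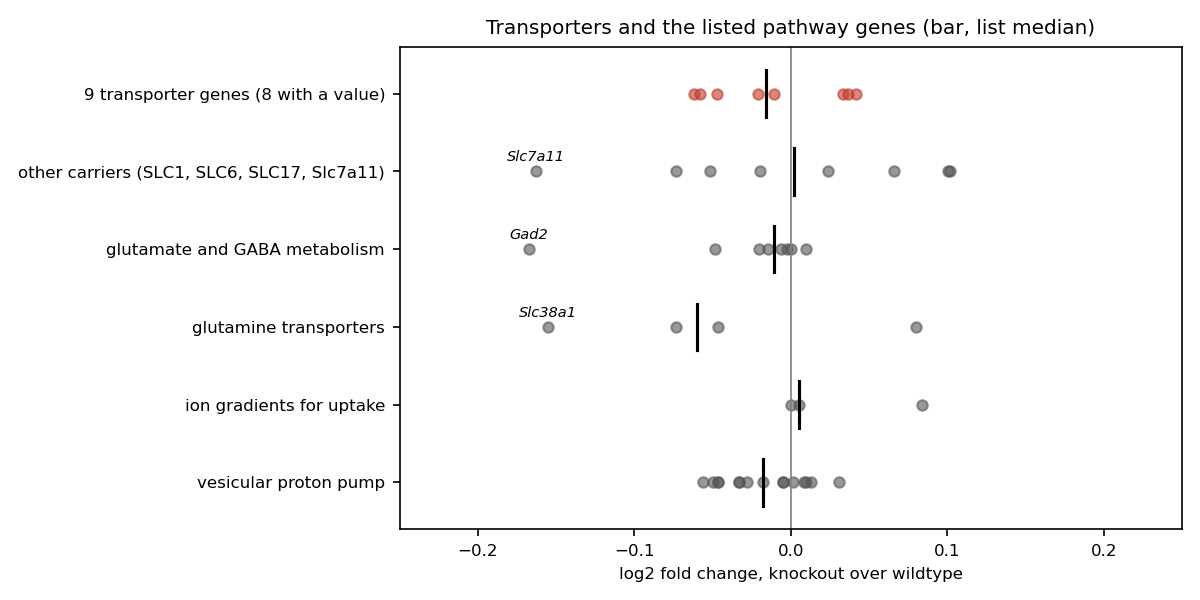
Log2 fold change of knockout over wildtype for each measured gene of the transporter set (red) and of 5 lists of related genes (grey), 1 point per gene, with the list median as a bar. The 3 named points, Slc7a11, Gad2 and Slc38a1, lie between -0.17 and -0.16, and none of the genes drawn passed the adjusted threshold.

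Markers of the cells that hold these transporters were also read. Of 12 interneuron markers 6 lay above 0 and 6 below, with a median of -0.003, and the farthest from 0 were Htr3a at -0.40, Gad2 at -0.17 and Sst at -0.11. Of 9 markers of excitatory neurons 4 lay above 0 and 5 below, with a median of -0.024. Among these, Prox1 at -0.14, Grik4 at -0.13 and Bcl11b at 0.06 were the farthest from 0. In the 10 marker lists, 73 genes were measured and 0 passed the adjusted threshold. An unadjusted p under 0.05 by limma was found for 4, or 5.48%, near the 3.86% of all genes. They were Gad2, Htr3a, Ndnf and Ttr.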

How the data were processed

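The authors deposited log2 expression values for 265511 transcript clusters on 4 arrays, and the scale was read from the values. How background was corrected and values were normalized, and with which software, is not given in the sources used here. Per the submitters' processing notes, mm9 was the genome build. Per the labels' protocols, 100 ng of total RNA was labelled with a kit for 3' in vitro transcription. It yields antisense RNA and such arrays carry probes for sense targets; how this was reconciled is not stated, so the strand read is uncertain.

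Values were used as deposited. Genes were named from GEO's platform annotation, which gave 1 symbol to 27090 rows, several to 2498 and none to 235923. Rows with several symbols named no gene. Rows with a mean under the 25th percentile of singly named rows (5.70) were left out, and a gene was represented by its brightest row, which left 15995 genes. All 8 transporters were above that level on every array. Gene order and chromosomes came from the RefSeq table of another build.

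Knockout and wildtype were compared with limma 3.58.1 (R 4.3.3, lmFit and eBayes, two-sided) with genotype as the only term, Benjamini-Hochberg adjustment over all genes and a threshold of 0.05. The 95% intervals are from that fit. Its code was tested on simulated data. The fit was repeated on all 20317 singly named rows above the filter, and under the alternatives given in the closing section. Named genes were Malat1, the 9 transporters and, in each list, any gene past the threshold and those farthest from 0; further genes were named after their values were seen. Members and lists were chosen with earlier results of these data known. The labels call the arrays of a genotype biological replicates.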

Additional observations from a re-analysis of the deposited data

How the results depend on the processing

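None of the 8 transporters was called by limma, and none had an unadjusted p under 0.05, with the replicate number as a block, an intensity trend, centring of array medians, quantile normalization, a filter at the 50th percentile, no filter, the mean over rows or every named row on its own. Slc17a8 fell under the 50th percentile filter and was not tested there. With 1 array left out, the lone array of a genotype is assumed to vary like the other genotype; the transporters were not called there either, which says nothing about stability, since the call of Malat1 was itself lost without either knockout array. Their median log2 fold change was -0.022 after quantile normalization and -0.031 after centring of array medians, and ran from -0.031 to 0.012 with 1 array left out. Directions turned only with 1 array left out, in the log2 fold changes of Slc1a1 (-0.035 to 0.013) and Slc6a13 (-0.129 to 0.013). No label ties the replicate number to the littermate pair, and deviations of same-numbered arrays from their group means correlated at 0.060 across genes. With the replicate block 1 gene was called, Malat1, and 837 had an unadjusted p under 0.05. The count of genes called was 0 to 1 with 1 array left out, being 0 without either knockout array, where Malat1 stood at -2.52 and -2.70 (adjusted p = 0.0992 and 0.0784 by limma). Over the 20317 rows, 1 was called, and 0 with the replicate block (1182 at an unadjusted p under 0.05 by limma). With no filter, the fit covered 27090 rows, of which 0 were called (1144 at an unadjusted p under 0.05 by limma). The cause was not tested.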

Other observations

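The row that GEO's platform annotation assigns to both Slc1a2 and 2900019G14Rik had log2 signals of 8.75 and 8.69 in knockout hippocampi, against 8.79 and 8.81 in wildtype hippocampi. Both knockout arrays were below both wildtype arrays. The log2 difference was -0.07 (95% interval -0.22 to 0.07, adjusted p = 1 by limma in a fit with all singly named rows), and the signal cannot be divided between the 2 symbols.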
